A study of Mus musculus with 2 samples.

Results

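The 10 genes described here, H2-K1, H2-D1, B2m, Tap1, Tap2, Psmb8, Psmb9, Cd74, H2-Aa and H2-Ab1, encode parts of the machinery with which mouse cells show peptides to T cells. They were chosen by symbol, as a list, and all 10 were found among the 31053 genes of the count matrices. Of them, 7 belong to the class I pathway and 3 to the class II pathway, and both classes were followed by library and by cell state. The study grew organoids from the urothelium, the epithelium that lines the bladder, of wild-type (WT) C57BL/6 mice aged 8 to 10 weeks. Proliferative organoids (NMU-O-P, here P) were kept in complete medium, which holds EGF, WNT3A, RSPO1, Noggin and the TGF-β receptor inhibitor LY2157299. Differentiated organoids (NMU-O-D, here D) were moved to medium without these 5 components. After enzymatic dissociation, 1 droplet-based single-cell library was made per condition. With 1 library in each group there was no replicate spread, so every difference between P and D is a description of these libraries, and no test, SD or standard error was computed. Culture, dissociation and library cannot be told apart from the medium.

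Class I molecules are made by nearly all nucleated cells. H2-K1 and H2-D1 encode heavy chains, which reach the cell surface paired with the light chain β2-microglobulin, the product of B2m, and a peptide. Proteasomes cut cytosolic proteins into peptides, Psmb8 and Psmb9 encode catalytic subunits of the interferon-inducible immunoproteasome, and the Tap1 and Tap2 products form the transporter that carries peptides into the endoplasmic reticulum. Class II molecules pair an α chain (H2-Aa) with a β chain (H2-Ab1) and need the invariant chain (Cd74) for assembly and transport. They are typical of dendritic cells, macrophages and B cells, and epithelial cells can make them under interferon-γ through the transactivator encoded by Ciita.

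The genes lie close together. On the GRCm38 build, with the GENCODE annotation, 8 of the 10 were on chromosome 17 within 1271 kb, in the major histocompatibility complex, and all 10 were protein-coding. H2-K1 was at chr17:33996017-34000347 on the minus strand and H2-D1 at chr17:35262730-35267499 on the plus strand. Between them stood Psmb9 (chr17:34181987-34187764, minus strand), Tap1 (chr17:34187553-34197225, plus strand), Psmb8 (chr17:34197721-34201454, plus strand) and Tap2 (chr17:34203527-34216321, plus strand). The class II genes H2-Ab1 (chr17:34257689-34269419, plus strand) and H2-Aa (chr17:34282744-34287823, minus strand) followed. B2m was outside the complex at chr2:122147686-122153083 on the plus strand, and Cd74 was on another chromosome.

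Stretches from the promoter windows of the class I chain genes, which lie before a RefSeq transcript start, are shown because H2-K1 and H2-D1 had nearly the same ratio between libraries while B2m did not. Sequences are from RefSeq (GRCm38.p6), 5′ to 3′ on the strand of the gene, and capitals mark matches to the motifs named after them. The H2-K1 stretch is chr17:34000438-34000467 (minus strand), before the GENCODE start but within the RefSeq span of the gene, which ends at 34000619. The H2-D1 stretch is chr17:35262914-35262943 (plus strand), before the RefSeq start at 35263094 but after the GENCODE start. The B2m stretch is chr2:122147437-122147685 (plus strand), before both starts.
H2-K1: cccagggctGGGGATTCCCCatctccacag
H2-D1: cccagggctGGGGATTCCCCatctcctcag
B2m: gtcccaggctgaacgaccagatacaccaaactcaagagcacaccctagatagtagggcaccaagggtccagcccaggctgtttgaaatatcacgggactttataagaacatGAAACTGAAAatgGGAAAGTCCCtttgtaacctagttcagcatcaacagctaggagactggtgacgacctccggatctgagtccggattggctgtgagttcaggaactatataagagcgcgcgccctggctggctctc

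In H2-K1 and H2-D1 the capitals mark overlapping matches to the NF-kB consensus, and the stretches were identical at 29 of 30 bases. In B2m the first run of capitals is the core of an interferon-stimulated response element and the second an NF-kB match. Promoter windows of RefSeq were matched for 7 of the 10 genes, with no window for Tap2, H2-Ab1 and Cd74. In the 250 bases before the start, on both strands, the response element core GAAANNGAAA was in 1 of these 7 (B2m), against 2.98% of 32851 windows of the same length. The gamma-activated site TTCNNNGAA was in 1 (Psmb8), against 7.02% of windows, and the NF-kB consensus was in 4 (B2m, H2-Aa, H2-D1 and H2-K1), against 3.90%. These matches are letters in a window and show no binding.

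After cells with over 800 genes and at most 12% mitochondrial UMIs were kept, P held 6818 of 8194 barcodes and 26681469 UMIs, and D 4896 of 6975 barcodes and 20305621 UMIs. A UMI (unique molecular identifier) marks 1 captured RNA molecule, and levels are given as UMIs per 1000000 UMIs summed over kept cells (CPM) with 95% exact Poisson intervals, which cover counting error only. Since the 3′ method counts 1 tag per molecule, no length scaling was applied, and levels are compared between libraries and states, not between genes. The libraries shared 10 barcodes, 6 of them among kept cells. The part of UMIs from ribosomal protein genes was 37.4% for P and 21.4% for D. The median log2 ratio of D over P was 0.42 for the 8939 genes that had 100 or more UMIs in each library. Each ratio is on the CPM scale unless said to be after subtracting this shift. Fewer cells making a gene and less of its RNA per cell cannot be told apart in these sums. Krt5 and Krt14, keratins of basal urothelium, were detected in both libraries, and Upk3a, a uroplakin of the luminal surface, had 4 UMIs in P against 6884 in D. Ptprc, the pan-leukocyte marker CD45, had 1 UMI in P and 2 in D.

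The class I chains were abundant in both libraries. H2-K1 had 5394 UMIs in P and 4972 in D, or 202 CPM (95% interval 197 to 208) and 245 CPM (238 to 252). H2-D1 had 4713 UMIs (P) and 4339 (D), or 177 CPM (172 to 182) in P and 214 CPM (207 to 220) in D. Both heavy chain genes were thus modestly higher in D on the CPM scale, with log2 ratios of 0.28 (0.22 to 0.33) and 0.27 (0.21 to 0.33), and lower than the typical gene once the shift was subtracted, at -0.15 for each. B2m had 2333 UMIs in P and 1487 in D, or 87.4 CPM (83.9 to 91.1) and 73.2 CPM (69.6 to 77.0). It was lower in D on both scales, with a log2 ratio of -0.26 (-0.35 to -0.16) and of -0.68 after the shift, which placed it at percentile 14.3 of the 10719 genes tested (100 or more UMIs in the libraries combined), against 39.2 for H2-K1 and 39.0 for H2-D1.

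The transporter genes differed little between libraries. Tap1 had 293 UMIs in P and 272 in D, or 11 CPM (9.76 to 12.3) and 13.4 CPM (11.9 to 15.1). Tap2 had 231 and 184 UMIs, or 8.66 CPM (7.58 to 9.85) and 9.06 CPM (7.80 to 10.5), and its log2 ratio of 0.07 had an interval that spanned 0 (-0.22 to 0.35). That of Tap1 was 0.29 (0.04 to 0.53). After the shift both were below 0, at -0.14 for Tap1 and -0.36 for Tap2.

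The immunoproteasome subunits differed in opposite directions. Psmb8 had 173 UMIs in P and 235 in D, or 6.48 CPM (5.55 to 7.53) and 11.6 CPM (10.1 to 13.2), a log2 ratio of 0.84 (0.55 to 1.13). Psmb9 had 291 and 182 UMIs, or 10.9 CPM (9.69 to 12.2) in P and 8.96 CPM (7.71 to 10.4) in D, a log2 ratio of -0.28 (-0.56 to -0.01). After the shift Psmb8 stood at 0.41 and Psmb9 at -0.70, percentiles 79.9 and 13.6 of the tested genes. Psmb8 was the single class I gene that stood above the typical gene in D.

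**Figure D1:**
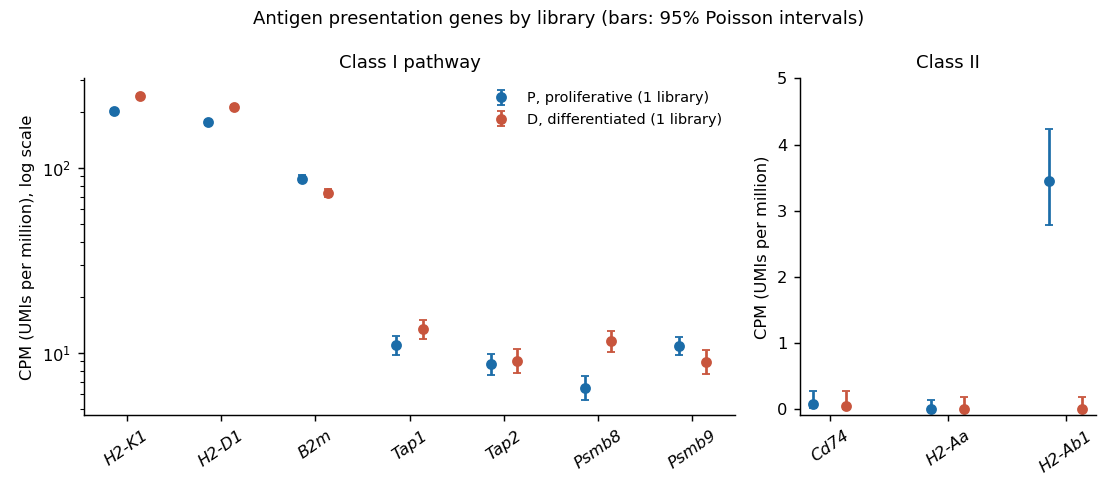
Level of each of the 10 genes in P and D, in CPM, on a log axis for class I and a linear axis for class II, 1 point per library with exact Poisson 95% intervals. H2-K1 and H2-D1 sit slightly higher in D, B2m and Psmb9 slightly lower, Psmb8 higher at 11.6 against 6.48 CPM, and H2-Ab1 has UMIs in P alone.

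None of the 7 class I genes reached a 2-fold difference in either direction, where D was at least 2-fold higher for 13.5% of the 10719 tested genes and P for 4.73%. After the shift those shares were 5.64% and 8.65%. At a 1.5-fold limit 1 of the 7, Psmb8 at 1.78-fold, was higher in D, against 36.2% of tested genes. The median log2 ratio of the 7 genes was 0.27, below the median of 0.41 over all tested genes. Of the 7 ratios 5 were above 0 but 1 above the shift. Most tested genes were also above 0, with a lower quartile of 0.05. The direction of H2-K1, H2-D1, Tap1 and Tap2 thus depends on the scaling, while those of B2m and Psmb9 (lower in D) and of Psmb8 (higher in D) did not change with any scaling tried.

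**Figure D2:**
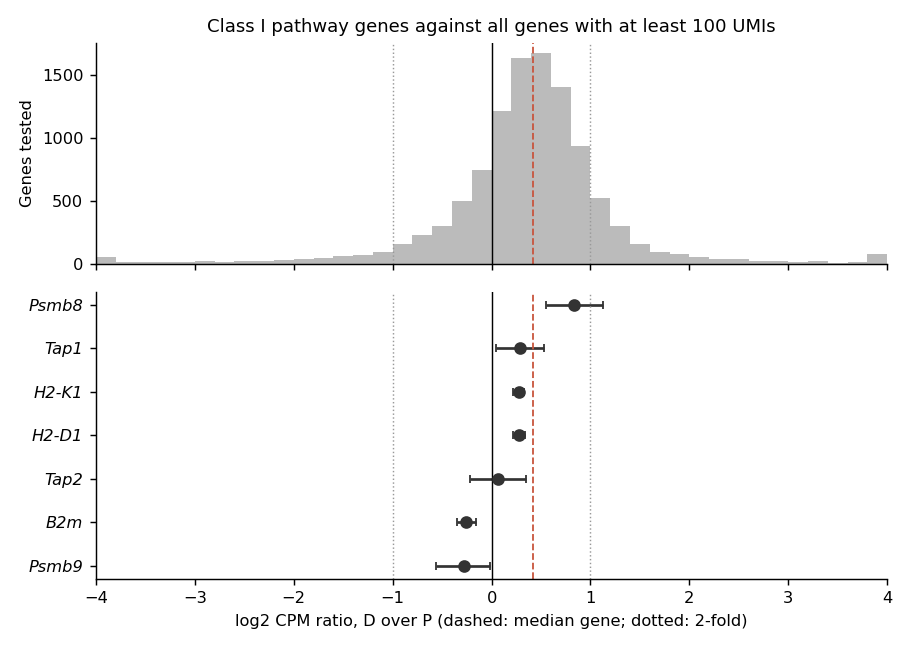
The log2 ratio of D over P on the CPM scale for the 7 class I genes, points with 95% counting intervals, beside the distribution over the 10719 tested genes, whose outermost bins also hold the genes beyond them. The members lie between -0.28 and 0.84, inside the bulk of the distribution, and all but Psmb8 lie left of the shift of 0.42.

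The heavy chain genes and B2m encode partners, so their balance was followed as a share, which does not depend on the library scaling. B2m gave 18.8% (18.1 to 19.5) of the summed UMIs of H2-K1, H2-D1 and B2m in P and 13.8% (13.1 to 14.4) in D. Stated as a ratio, there were 4.33 heavy chain UMIs per B2m UMI in P and 6.26 in D. The immunoproteasome subunits were set against the constitutive subunits whose places they take. Psmb8 made up 4.08% (3.50 to 4.71) of Psmb8 and Psmb5 UMIs in P and 4.68% (4.11 to 5.30) in D, with intervals that overlap. Psmb9 made up 7.59% (6.77 to 8.47) of Psmb9 and Psmb6 UMIs in P and 4.29% (3.70 to 4.94) in D. Psmb10, the third inducible catalytic subunit, made up 29.9% (28.1 to 31.8) of Psmb10 and Psmb7 UMIs in P and 36.0% (34.0 to 38) in D. The inducible share was therefore lower in D for Psmb9 and higher for Psmb10, with no common direction for the 3 pairs.

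Of the 6 genes that load and trim class I peptides, all had at least 100 UMIs. All 6 had a log2 ratio above 0, as did most tested genes (lower quartile 0.05), and 5 of the 6 stood above the shift. The median log2 ratio of the 6 was 0.69 (0.27 after the shift). Canx (calnexin), a chaperone of new heavy chains, was below the typical gene at 0.25 (-0.18 after the shift). Tapbpl, a tapasin-related peptide editor, passed 2-fold at 1.18 (0.867 to 1.503), as did 13.5% of tested genes, with 132 UMIs in P and 228 in D. Tapbp (tapasin), which bridges the transporter and the class I molecule, had 1391 and 1896 UMIs and a log2 ratio of 0.84 (0.74 to 0.94). The proteasome genes outside the members were also higher in D on the CPM scale. The inducible Psmb10, Psme1 and Psme2 (the latter pair encodes the PA28 activator) had log2 ratios of 0.66, 0.57 and 0.63, and the constitutive Psmb5, Psmb6 and Psmb7 and the activator gene Psme3 of 0.63, 0.59, 0.27 and 0.88. None of these 7 was 2-fold apart. The medians were 0.63 for the inducible and 0.61 for the constitutive list (0.21 and 0.19 after the shift), and Psmb7 was the one below the shift, at -0.16 after it.

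Of 14 other class I-like chain genes 13 were in the matrix and 4 had at least 100 UMIs. These 4 had their higher level in P (median log2 ratio -0.73). Mr1, which presents microbial vitamin B metabolites to MAIT cells, was the member of this list past 2-fold, with 578 UMIs in P and 193 in D, a log2 ratio of -1.19 (-1.43 to -0.95). The other 3, H2-T22, H2-T23 and H2-M3, lay between -0.25 and -0.83. Among the genes under the 100-UMI minimum Cd1d1, which presents lipids to NKT cells, went the other way, with 5 UMIs in P, 52 in D and a log2 ratio of 3.77 (2.46 to 5.45). Among costimulatory and checkpoint ligands 2 of 6 had at least 100 UMIs and both were at least 2-fold lower in D. Of all tested genes 4.73% were lower by that limit, and 8.65% after the shift. Cd80, a ligand of CD28, had 111 UMIs in P and 34 in D, a log2 ratio of -1.31 (-1.91 to -0.75), and Icosl, the ligand of ICOS, had 104 and 25, a log2 ratio of -1.66 (-2.35 to -1.02).

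The transactivators of both pathways were near the limit of detection. Nlrc5, which activates class I genes, had 2 UMIs in P and 0 in D. Ciita, which activates class II genes, had 1 UMI in each library, so neither could be compared. Of the 8 listed transactivators, RFX factors and NF-Y subunits, 6 had at least 100 UMIs, with a median log2 ratio of 0.41 (-0.02 after the shift). Nfyc, a subunit of NF-Y, was the one past 2-fold, at 1.19 (0.97 to 1.42), a class that held 13.5% of tested genes. Of 16 interferon and NF-kB signalling genes 15 had at least 100 UMIs, with a median of 0.67 (0.25 after the shift). Irf1, an interferon-induced activator of class I genes, was slightly lower in D, with 472 and 306 UMIs and a log2 ratio of -0.23 (-0.44 to -0.02). Of 13 interferon-induced genes 6 had at least 100 UMIs, none was 2-fold apart, and the median was 0.30 (-0.13 after the shift).

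Cell states were then drawn within each library, by clustering on variable genes from which all antigen presentation lists had been removed, so that the genes described did not shape the clusters. P gave 4 clusters and D 3. In P, cluster 0 (2586 cells, 37.9%) was led by Ctla2a, Nbl1 and Ptprz1 and had 5 of 7 basal markers raised. Cluster 1 (2472 cells, 36.3%) was led by Sprr3, Sprr2f and Cnfn. It had all 9 intermediate, 7 of 9 squamous and all 3 detected luminal markers raised, and was left unnamed. Cluster 2 (1407 cells, 20.6%), led by Fmo2, Krt1 and Slc7a11, had 3 of 7 basal markers raised, and cluster 3 (353 cells, 5.18%), led by Ccna2, Hmmr and Nusap1, had all 12 proliferation markers and 6 of 7 basal markers raised and is called proliferative-like. In D, cluster 0 (2793 cells, 57.0%) was led by Krt1, Reg1 and Lgi2. Cluster 1 of D (1307 cells, 26.7%) was led by Cav1, Acta2 and Ms4a10 and had 6 of 7 basal markers and all 9 detected proliferation markers raised. Cluster 2 of D (796 cells, 16.3%) was led by Ifit1bl1, Ankrd1 and Ppbp. It had all 5 detected luminal markers raised, with Upk3a and Upk3b among its 10 leading genes, and is called luminal-like. It also had 7 of 9 intermediate and 4 of 5 detected squamous markers raised. Clusters 0 and 3 of P and cluster 1 of D met the rule for the basal side. Median depth ranged from 2676 UMIs per cell in cluster 1 of D to 4512.5 in the luminal-like cluster, and ribosomal protein genes took 33.8% to 42.05% of UMIs in the clusters of P and 17.9% to 22.5% in those of D. No member changed direction between states of a library when mitochondrial and ribosomal protein genes were left out of the totals.

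On the CPM scale both heavy chain genes were highest in the luminal-like cells of D, then in cluster 1 of P and cluster 0 of D. H2-K1 stood at 158 CPM (150 to 168) in cluster 0 of P, 242 (233 to 251) in cluster 1, 188 (176 to 201) in cluster 2 and 154 (135 to 174) in cluster 3. In D it stood at 237 CPM (228 to 246) in cluster 0, 139 (128 to 151) in cluster 1 and 363 (345 to 381) in the luminal-like cluster 2. The basal side of each library was thus lowest for H2-K1, and clusters 0 and 3 of P did not differ beyond counting error. Cluster 1 of P and cluster 0 of D had overlapping intervals on the CPM scale. Ribosomal protein genes took 33.8% of UMIs in the former and 22.5% in the latter, so an order across libraries depends on the scaling. H2-D1 ran from 129 CPM (121 to 137) in cluster 0 of P to 299 (283 to 315) in the luminal-like cells of D, with 221 in cluster 1, 146 in cluster 2 and 160 in cluster 3 of P, and 204 in cluster 0 and 149 in cluster 1 of D.

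B2m had another order. It stood at 115 CPM (107 to 122) in cluster 0 of P and 138 (120 to 157) in the proliferative-like cluster 3, but at 72.0 (67.4 to 76.9) in cluster 1 and 66.2 (59.1 to 73.8) in cluster 2. In D it was 65.7 CPM (61.1 to 70.5) in cluster 0, 61.1 (53.8 to 69.2) in cluster 1 and 104 (94.9 to 114) in the luminal-like cluster. The highest B2m levels were therefore on the basal side of P, where H2-K1 was low. H2-D1 was low in cluster 0 of P, while in cluster 3 its 160 CPM (141 to 180) overlapped cluster 2 (146, 136 to 157). Next for B2m came the luminal-like cells of D, where H2-K1 and H2-D1 were high. B2m gave 28.5% of chain UMIs in cluster 0 and 30.5% in cluster 3 of P, 13.5% in cluster 1 and 16.5% in cluster 2, and 13.0%, 17.5% and 13.6% in clusters 0, 1 and 2 of D. Heavy chain UMIs per B2m UMI ranged from 2.28 in the proliferative-like cells to 6.71 in cluster 0 of D.

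**Figure D3:**
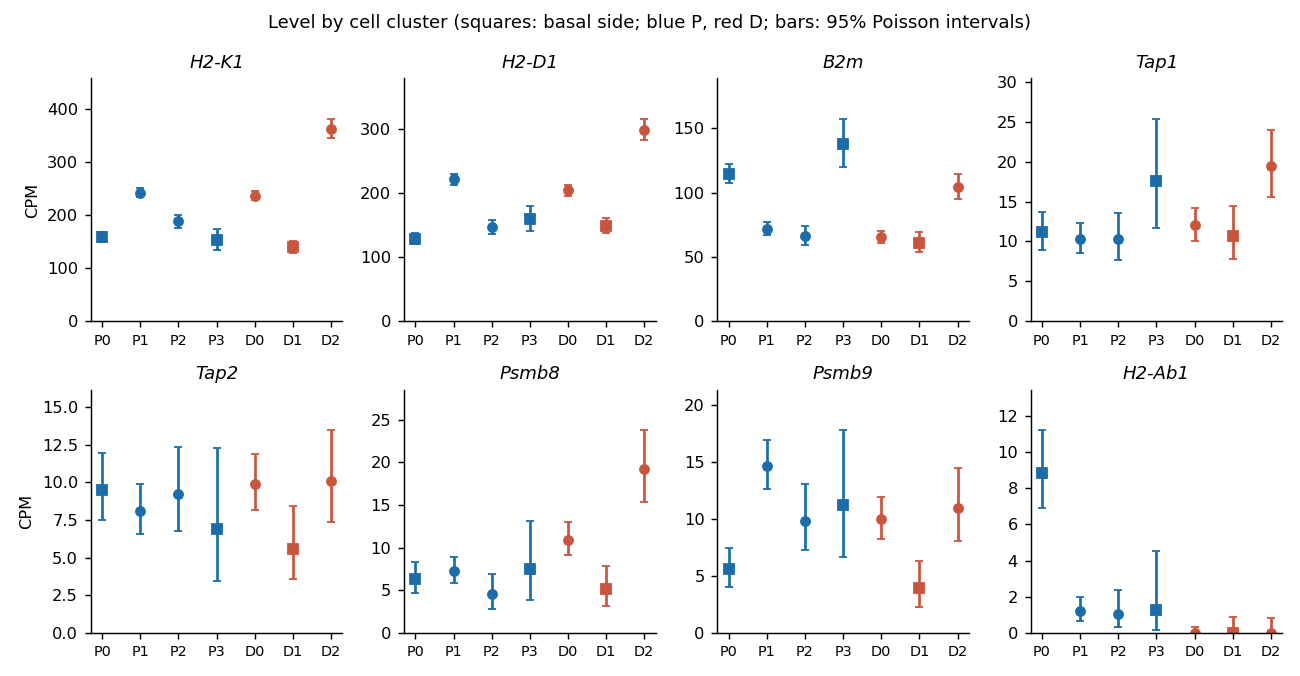
Level in CPM of the class I genes and H2-Ab1 in the 4 clusters of P and the 3 clusters of D, with exact Poisson 95% intervals. H2-K1 and H2-D1 peak in the luminal-like cluster of D at 363 and 299 CPM, while B2m is highest in the proliferative-like cluster of P at 138 CPM.

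**Figure D4:**
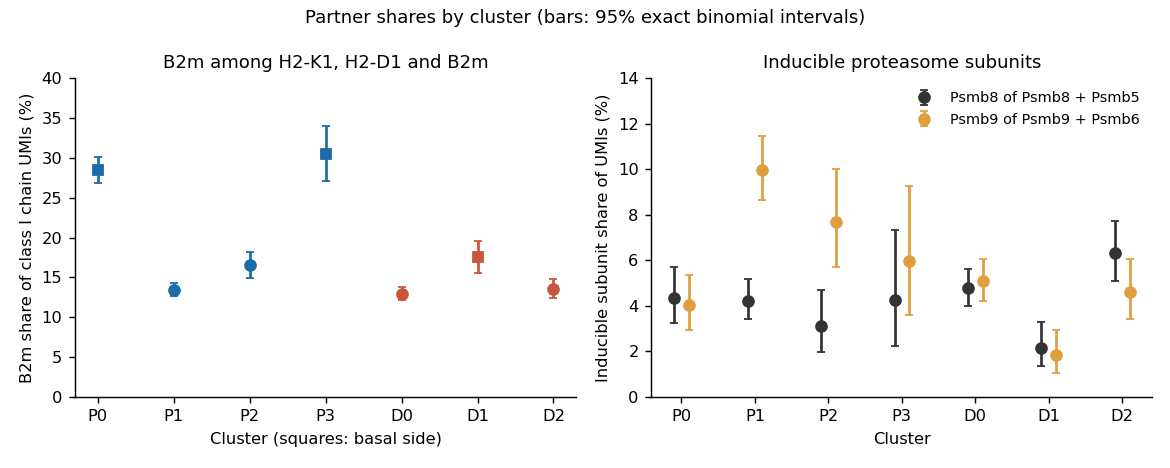
Share of partner UMIs by cluster, in percent with exact binomial 95% intervals, for B2m among the class I chains and for Psmb8 and Psmb9 beside their constitutive counterparts. B2m reaches 28.5% and 30.5% in clusters 0 and 3 of P and stays between 13.0% and 17.5% in the other 5 clusters.

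The less abundant members varied with wider intervals. Psmb8 was highest in the luminal-like cells of D at 19.2 CPM (15.4 to 23.7), against 10.9 in cluster 0 and 5.12 in cluster 1 of D and 4.52 to 7.51 in the clusters of P. Psmb9 was highest in cluster 1 of P at 14.7 CPM (12.6 to 16.98) and lowest in cluster 0 of P at 5.58 (4.05 to 7.49) and cluster 1 of D at 3.90 (2.23 to 6.33). The proliferative-like cluster of P stood at 11.3 CPM (6.68 to 17.8). In D, Psmb9 stood at 9.98 CPM in cluster 0 and 10.96 (8.11 to 14.5) in the luminal-like cells, which overlapped cluster 1 of P. Within D both genes had the same order of clusters, and within P all Psmb8 intervals overlapped. Their highest clusters differed on the CPM scale, the luminal-like cells for Psmb8 and the cluster led by Sprr genes for Psmb9. That is a comparison across libraries, which depends on the scaling. Tap1 was at 19.5 CPM (15.6 to 23.99) in the luminal-like cells and 17.5 (11.6 to 25.3) in the proliferative-like cells, and between 10.3 and 12 elsewhere. Tap2 ranged from 5.60 CPM (3.55 to 8.41) in cluster 1 of D to 10.1 (7.34 to 13.5) in the luminal-like cells, with overlapping intervals.

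Within D, all 7 class I genes were lower on the basal side than in the other cells, with a median log2 ratio of -0.83 where the median of 9398 tested genes was 0.11. H2-K1 was at 139 CPM against 272 (log2 ratio -0.96, -1.09 to -0.84) and H2-D1 at -0.63 (-0.76 to -0.51). B2m was at 61.1 against 76.3 CPM (-0.32, -0.52 to -0.12). Those other cells include the luminal-like cluster at 104 CPM, while B2m in cluster 0 (65.7, 61.1 to 70.5) overlapped cluster 1 (53.8 to 69.2). Psmb8 at -1.37 (-2.09 to -0.72) and Psmb9 at -1.39 (-2.23 to -0.65) were the 2 members at least 2-fold lower, a class that held 6.95% of tested genes, and none was among the 6.02% at least 2-fold higher. Tap2 stood at -0.83 (-1.53 to -0.19) and Tap1 at -0.39 (-0.89 to 0.08), the one interval that spanned 0.

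Within P the members divided. On the basal side H2-K1 was at 158 CPM against 227 in the other cells (log2 ratio -0.52, -0.61 to -0.44), H2-D1 at 134 against 200 (-0.58, -0.67 to -0.48) and Psmb9 at 6.54 against 13.3 (-1.03, -1.46 to -0.62). B2m was higher there, at 118 against 70.4 CPM (0.75, 0.63 to 0.87). Tap1, Tap2 and Psmb8 had intervals that spanned 0, at 0.25, 0.10 and 0.02. The median of the 7 was 0.02, against 0.15 over 9486 tested genes, and 1 of 7 was at least 2-fold lower, where 6.12% of tested genes were lower and 8.30% higher by that limit. Without the proliferative-like cluster, which proliferation and not basal genes led, B2m stood at 0.70 and the median at -0.03.

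The luminal-like cells of D, compared after their values had been seen, had all 7 members above the other cells of D. The median log2 ratio was 0.69, where the median of tested genes was -0.08. H2-K1 stood at 363 against 212 CPM (0.78, 0.69 to 0.86), H2-D1 at 0.66 (0.56 to 0.75), B2m at 0.69 (0.53 to 0.85) and Tap1 at 0.74 (0.35 to 1.11). Psmb8 at 19.2 against 9.41 CPM (1.03, 0.63 to 1.42) was the 1 member past 2-fold, as were 2.80% of tested genes, with 4.68% at least 2-fold lower. The intervals of Tap2 (0.20) and Psmb9 (0.38) spanned 0. The summed interferon-induced genes stood at 65.7 CPM (58.4 to 73.7) in these cells and between 29.96 and 35.8 in the other 6 clusters. At equal depth per cell, such a UMI was in 9.11% (7.19 to 11.4) of these cells, with up to 17 in 1 cell. The share was 6.14% (5.25 to 7.13) in cluster 0 and 6.10% (4.72 to 7.74) in cluster 1 of D. The log2 ratios of Isg15, Ifit1, Ifit3, Oasl2, Iigp1, Bst2 and Cxcl10 had intervals above 0. Those of Gbp2, Gbp3, Gbp7, Igtp and Irgm1 spanned 0. Ifit3, an antiviral interferon-induced gene, had 28 of its 32 UMIs in D there, in 13 of the 796 cells. Ifit1bl1, a gene of the same family, led this cluster. The part of the interferon-induced genes in the class I levels was not tested.

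**Figure D5:**
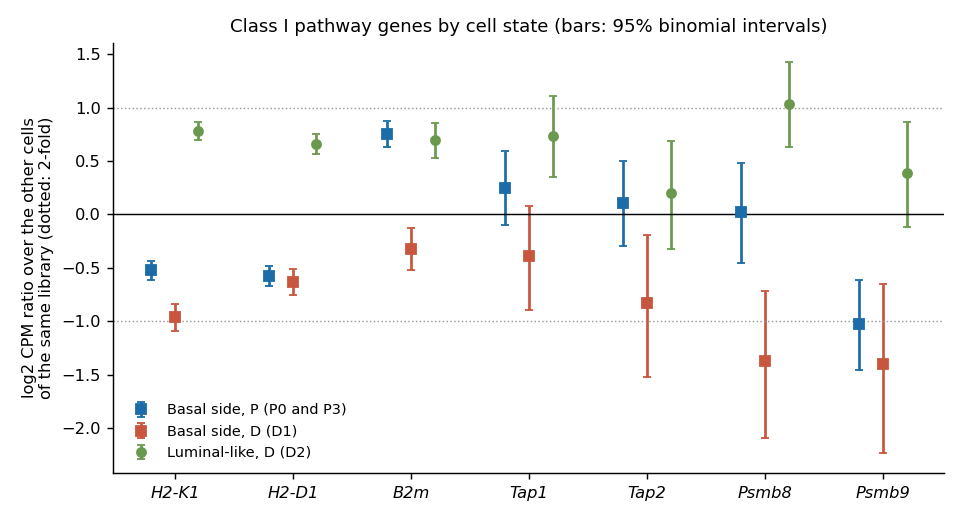
The log2 ratio of each class I gene between the cells named and the other cells of the same library, with 95% counting intervals, for the basal side of P, the basal side of D and the luminal-like cells of D. B2m lies at 0.75 in the first and -0.32 in the second, while H2-K1 and H2-D1 are below 0 in both and above 0 in the luminal-like cells.

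Single cells were compared after each had been thinned to 2100 UMIs, which left out 180 shallower cells in P and 479 in D. Of these, 129 in P were from cluster 0 and 274 in D from cluster 1, both on the basal side. The library shares therefore hold fewer cells of these clusters, more so in D. Thinning was to all UMIs, of which ribosomal protein genes took 37.4% in P and 21.4% in D. A difference in these shares between libraries thus depends on the scaling, as the CPM does. A UMI of a class I chain was found in 59.4% (58.2 to 60.6, exact binomial interval) of cells in P and 63.9% (62.4 to 65.3) in D, and without thinning in 76.5% and 76.8%. By cluster the thinned share was 55.4%, 66.7%, 54.3% and 56.6% in clusters 0 to 3 of P and 64.5%, 51.0% and 78.9% in clusters 0 to 2 of D. The order was close to that of the CPM, with the luminal-like cells at the top and the basal side of D at the bottom. These cells had 1.66 chain UMIs on average after thinning, against 0.955 over P and 1.10 over D, and the highest cell had 8 in P and 12 in D. Transporter UMIs (Tap1 or Tap2) were in 4.01% of thinned cells in P and 4.66% in D, and immunoproteasome UMIs (Psmb8 or Psmb9) in 3.53% and 3.98%, rising to 7.19% (5.48 to 9.23) in the luminal-like cells. No cell type known to lack class I was present, so the share of cells that free RNA alone would give was not measured.

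Of the 3 class II members, the β chain gene alone had more than 2 UMIs in a library. H2-Ab1 had 92 UMIs in P, or 3.45 CPM (2.78 to 4.23), and 0 in D, where the level of P would have given 70.0. Against a floor of 3 UMIs over D it was 23.3-fold higher in P, and 18.6-fold at the low end of the counting interval. H2-Aa, its α chain partner, had 0 UMIs in both libraries, which allows up to 0.112 CPM in P and 0.148 CPM in D by the same floor, and Cd74 had 2 UMIs in P and 1 in D. No ratio was therefore given for H2-Aa and Cd74. The other class II genes were also scarce, with 17 and 8 UMIs for H2-DMa, 23 and 3 for H2-DMb1 and 5 and 2 for H2-Eb1 in P and D. Of the 10 other class II chain and loading genes in the matrix, 3 were at 0 in both libraries and 2, the lysosomal proteases Ctsl and Lgmn, had at least 100 UMIs.

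The H2-Ab1 UMIs were concentrated in cluster 0 of P. This cluster held 70 of the 92, or 8.88 CPM (6.92 to 11.2), against 15 UMIs (1.22 CPM) in cluster 1, 5 (1.03 CPM) in cluster 2 and 2 (1.25 CPM) in cluster 3. Over the basal side of P the log2 ratio to other cells was 2.71 (1.98 to 3.50), with 72 against 20 UMIs. At equal depth an H2-Ab1 UMI was found in 45 of 2457 cells of cluster 0, or 1.83%, and in 0.829% (0.625 to 1.08) of all P cells. In D it was found in 0 of 4417 cells, which by a floor of 3 counts allows up to 0.0679% of cells with such a UMI at this depth and sets no limit on cells that express the gene. The share of cells with any class II UMI was 0.844% (0.638 to 1.09) in P, 1.87% in its cluster 0 and 0.204%, 0.216% and 0.590% in clusters 1 to 3, and 0.0226%, from 1 cell with Cd74, in D.

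The cells with H2-Ab1 did not carry the defining leukocyte markers. There were 85 such cells in P without thinning, 78 with 1 UMI and 7 with 2, and their median depth of 3341 UMIs was near the 3405.5 of all P cells. Ptprc, Cd74 and H2-Aa were at 0 in all 85, and of 17 leukocyte markers 16 were at 0 and Cd68 had 6 UMIs. The summed leukocyte markers stood at 18.8 CPM (6.88 to 40.8) in these cells and 22 in the other P cells. Within cluster 0 of P, the 64 cells with H2-Ab1 and the 2522 without had H2-K1, H2-D1 and B2m ratios whose intervals spanned 0, at 0.40, -0.42 and -0.40 on the log2 scale. Of the 7 basal markers, Krt14 (0.23, 0.14 to 0.32) and Itgb4 (0.48, 0.04 to 0.89) were higher in the cells with H2-Ab1, Trp63 was lower (-0.50, with an upper bound of -0.04), and the intervals of the other 4 spanned 0. These intervals cover the counting error of pooled UMIs and not the spread between cells, and no difference between these cells was tested.

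Over the whole libraries the 17 leukocyte markers summed to 586 UMIs in P, 93.0% of them Cd68, and 554 in D, 72.2% of them Laptm5, both lysosomal membrane proteins. By cluster they ranged from 6.26 to 31.1 CPM in P and from 5.36 to 35.3 CPM in D, and Tyrobp, Adgre1, Itgax, Cd207 and Cd3e were at 0 in both. The sum was high where H2-K1 was high, in cluster 1 of P and in clusters 0 and 2 of D, while the defining marker Ptprc had 1 UMI in P and 2 in D. Of 6 fibroblast markers Dcn stood out, with 930 of the 951 fibroblast marker UMIs in cluster 1 of D, and Col1a2 was at 0 in both libraries. The part of these genes in the class I levels was not tested.

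The levels of the members across the 7 clusters were set side by side as a description, since clusters of a library share its depth and composition. H2-K1 and H2-D1 had a Pearson correlation of log2 CPM of 0.93, and Psmb8 one of 0.84 with H2-K1 and 0.87 with H2-D1. B2m correlated with neither heavy chain gene (-0.02 and -0.01) but at 0.70 with Tap1. Outside the lists, the 5 of 8892 candidate genes most like the summed class I chains over the 7 clusters were Akr1b8 (0.98), an aldo-keto reductase, Ptprj (0.97), a receptor tyrosine phosphatase, Parp9 (0.97), which acts in interferon signalling, Ereg (0.97), a ligand of the EGF receptor, and Gm32856 (0.97).

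Some counts may hold reads of neighbours or copies. In the last 500 bases of the longest coding transcript, where 3′ reads fall, 0.443% of 50-base words of H2-K1 were shared with H2-D1, and 9.53% of those of H2-D1 occurred in other genes (80 genes, none over 4.88%). The other 8 members shared none. B2m lay wholly within Patl2 on the opposite strand, Tap1 and Psmb9 overlapped by 212 bases on opposite strands, and Tap2 and Psmb8 overlapped the antisense gene Gm20496. Values of H2-D1 are uncertain to the extent that such reads were assigned to it.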

How the data were processed

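Single-cell RNA was measured in 1 library of P and 1 of D organoids with the 3′ chemistry of 10x Genomics. Per the submitters' processing notes the authors used bcl2fastq 2.19.0 and Cell Ranger 3.0.2 with GRCm38/mm10, and they deposited raw UMI counts per gene and barcode. The study's filter was applied (over 800 genes, at most 12% mitochondrial UMIs). A minimum of at least 800 genes would have kept 6826 P cells. Median depth of kept cells was 3405.5 UMIs in P and 3227.5 in D. Over 12% mitochondrial UMIs were found in 5.81% of P and 27.3% of D barcodes.

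Counts were summed with Python 3.11.15, NumPy 2.4.6 and SciPy 1.17.1. Levels carry exact Poisson, ratios exact conditional binomial and shares exact (Clopper-Pearson) intervals at 95%. The ratio script was tested on simulated data. Genes needed 100 UMIs over both sides of a comparison. Clusters came from Seurat 5.3.0 in R 4.3.3, with 2000 variable features less the antigen presentation genes (1990 left in P and 1988 in D), 25 components in P and 21 in D, and resolution 0.2. A cluster was on the basal side when most detected basal markers stood above the library's level and luminal or squamous markers did not lead it. Scrublet in scanpy 1.11.5 called 0 doublets in both libraries and so had not worked, and no doublets were removed.

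The members and lists were chosen with earlier results of these data known. Named were all members, list genes at least 2-fold apart, a set of 12 pathway genes with Ptprc always, the 5 genes most like the class I chains and the 3 leading genes of each cluster. Some list genes are not reported here. Other list genes and markers named in the text, and the luminal-like comparison, were chosen after values were seen. Planned class II medians had no value, since H2-Aa had no UMI and Cd74 too few, and H2-Ab1 is given in their place; for the same reason no genes most like class II were sought. Alternatives covered the cell filter, scaling, fold, thinning depth, cluster resolution, variable features and doublet scores.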

Additional observations from a re-analysis of the deposited data

Results flagged for a closer look

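B2m moved in opposite directions on the basal side of the libraries, with a log2 ratio to the other cells of 0.751 in P (118 against 70.4 CPM) and -0.319 in D (61.1 against 76.3 CPM). In D the other cells include the luminal-like cluster, at 104 CPM (94.9 to 114). Cluster 0 of D, at 65.7 CPM (61.1 to 70.5), overlapped the basal cluster 1, at 61.1 (53.8 to 69.2). The difference between the libraries was not tested, since each library is 1 sample. The direction held in P without the proliferative-like cluster (0.70) and on the median-ratio scale (0.59).

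The barcodes that failed the filter, 1376 in P and 2079 in D, also held members, given here per 1000000 non-mitochondrial UMIs because they are rich in mitochondrial RNA. The class I chains stood at 506 in the left-out barcodes of P (496 in kept cells) and at 479 in those of D (573 in kept cells). Tap1, Tap2, Psmb8 and Psmb9 together stood at 44.7 in the left-out barcodes of P (39.4 in kept cells) and 62.7 in those of D (46.3 in kept cells). H2-Ab1 had 7 UMIs in the left-out barcodes of P, or 3.51 (3.66 in kept cells), and 1 UMI in those of D.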

How the results depend on the processing

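The scaling between libraries decided the direction of most small ratios. The median log2 ratio of the 7 class I genes, 0.27 on the CPM scale, was -0.0605 without mitochondrial and ribosomal protein genes and -0.15 when scaled by the median ratio. By gene these scalings gave -0.0588 and -0.15 for H2-K1, -0.0605 and -0.15 for H2-D1, -0.0486 and -0.14 for Tap1, and -0.27 and -0.36 for Tap2. The fold of H2-Ab1 in P over the floor of D, 23.3, was 17.05 with a stricter filter (over 1000 genes, at most 10% mitochondrial UMIs). It was 29.4 without mitochondrial and ribosomal protein genes and 31.3 by the median ratio. At 1.5-fold 1 member was higher in D, in place of 0 at 2-fold. The share of P cells with a class II UMI, 0.844%, was 0.484% at 1000 UMIs, 0.0452% with at least 2 UMIs and 1.28% without thinning, and that of D, 0.0226%, was 0% at 1000 UMIs and 0% with at least 2. On the basal side of P the class I median of 0.02 was -0.0258 without the proliferative-like cluster and -0.14 by the median ratio, with Psmb8 at -0.0258 and -0.14 under the same alternatives and Tap2 at -0.0573 by the median ratio. The medians on the basal side of D (-0.99 to -0.74) and in the luminal-like cells (0.62 to 0.73) kept their direction under the alternatives run. Over the alternatives for single genes, 132 values moved by less than their counting interval, 11 moved by more, and the 11 given above changed direction. The planned doublet removal gave nothing to remove, and leaving out the 6% of cells of highest doublet score, the split of the proliferative-like cluster and the scalings within libraries were chosen after seeing the data. No paired analysis was possible because each group held 1 library. Counting error limits Tap1, Tap2, Psmb8 and Psmb9 most.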
